A study of Arabidopsis thaliana with 18 samples.

Results

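The REVEILLE (RVE), LNK and GI genes and the blue-light F-box genes of the Arabidopsis thaliana clock were followed in leaves under water and in air: RVE1 (AT5G17300), RVE2 (AT5G37260), RVE4 (AT5G02840), RVE6 (AT5G52660), RVE8 (AT3G09600), LNK1 (AT5G64170), LNK2 (AT3G54500), GI (AT1G22770), FKF1 (AT1G68050) and ZTL (AT5G57360). They were taken by locus identifier, 10 of the 32833 genes listed, and all 10 reached 1 TPM in at least 3 libraries, as did 20302 genes in all. Leaf RNA came from 4-week-old plants of 3 lines, each submerged for 6 h or kept in air. Every sample title, in air and under water alike, also carries the word mock. The lines were phyA-211, mutated in PHYA, which encodes a light receptor, ein3eil1, mutated in both EIN3 and EIL1, which encode transcription factors of ethylene signalling, and wild type. The labels do not give the ein3 and eil1 alleles, the wild-type ecotype, the clock time of collection or whether replicate libraries came from separate plants. They give the 6 h for submerged plants only, so whether air leaves were collected at the same clock time is not known. If they were not, time of day and submergence cannot be told apart in these clock genes, and this was not tested. There were thus 6 groups of 3 libraries: submerged and air phyA-211, submerged and air ein3eil1, and submerged and air wild type.

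The plant circadian clock is a network of transcription factors that repress or activate one another at different times of day. RVE4, RVE6 and RVE8 are MYB-like proteins that bind the evening element and activate evening genes together with the coactivators LNK1 and LNK2, whereas RVE1 and RVE2 are related MYB-like proteins that act mainly in clock outputs such as growth and seed dormancy. GI is a large plant-specific protein that works with the blue-light-sensing F-box proteins FKF1 and ZTL, which mark other clock and flowering regulators for degradation.

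Values are in TPM, the length-normalised share of a transcript in its library. TPM holds no depth, and counting intervals are therefore absent. Changes are differences of mean log2(TPM + 1) with their SE from limma, a scale that shrinks the changes of weakly expressed genes, and a gene was called at a Benjamini-Hochberg adjusted p under 0.05 over all genes tested. These p-values rest on the spread between the 3 libraries of a group, pooled over the 6 groups, and this spread may be technical. The groups were unlike in spread: the median SD of log2(TPM + 1) was 0.359 in submerged phyA-211 and 0.0973 in submerged wild type. A pooled SE can thus be too small for the former and too large for the latter. In whole-leaf RNA, fewer cells of a type and less RNA per cell cannot be told apart.

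Each library listed between 20611 and 23189 genes above 0. PHYA averaged 10.3 and 1.41 TPM in submerged and air phyA-211, against 22.9 and 11.7 TPM in submerged and air wild type. EIL1 averaged 10.3 and 16.6 TPM in submerged and air ein3eil1, against 67.1 and 41.0 TPM in submerged and air wild type, and EIN3 averaged 44.5 and 27.5 TPM in submerged and air ein3eil1, against 54.5 and 59.7 TPM in submerged and air wild type. The hypoxia gene ADH1 averaged 1577, 1110 and 412 TPM in submerged phyA-211, ein3eil1 and wild type, and between 2.18 and 12.4 TPM in the air groups. The 3 leaf mesophyll markers summed to between 5171 and 23368 TPM. The root markers PLT1, PLT2 and RHD6 were listed at 0 in all 18 libraries, and all 4 root markers summed to at most 0.18 TPM. The 3 flower markers (AP3, PI and AG) summed to 0.99 to 44.45 TPM in air ein3eil1, 0.88 to 20.38 in air phyA-211 and 1.3 to 3.72 in air wild type. Under water they summed to 5.64 to 26.92, 6.46 to 13.38 and 4.83 to 6 TPM in ein3eil1, phyA-211 and wild type. No flower marker was called in any comparison, and their part in the results was not tested. Submerged phyA-211 replicate 1 stood apart: its log2 values correlated at 0.957 to 0.960 with the submerged wild-type libraries, but at 0.932 and 0.918 with replicates 2 and 3 of its own group. PHYA stood at 7.50, 10.6 and 12.8 TPM in replicates 1, 2 and 3 of submerged phyA-211, below all submerged wild-type libraries. Whether replicate 1 carries a wrong label or differs for another reason was not tested. The named changes of the 10 genes that use submerged phyA-211, and the counts that move without replicate 1, are thus given without it too.

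RVE1 (chr5:5690225-5692992) and RVE2 (chr5:14751344-14753088) are the output members, and both rose under submergence in all 3 lines. Their upstream sequences are shown because they are the only members with a G-box (CACGTG, its own reverse) in the 500 bases before the annotated gene start. The 250 bases before each start are given, on the minus strand of TAIR10.1 at chr5:5692993-5693242 for RVE1 and chr5:14753089-14753338 for RVE2, with the G-box and a CCA1-binding site (AAAAATCT) in capitals.
RVE1: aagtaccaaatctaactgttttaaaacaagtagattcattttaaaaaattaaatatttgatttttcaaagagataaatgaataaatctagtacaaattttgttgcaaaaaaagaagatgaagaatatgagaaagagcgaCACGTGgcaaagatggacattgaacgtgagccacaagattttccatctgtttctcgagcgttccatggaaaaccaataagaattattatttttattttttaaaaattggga
RVE2: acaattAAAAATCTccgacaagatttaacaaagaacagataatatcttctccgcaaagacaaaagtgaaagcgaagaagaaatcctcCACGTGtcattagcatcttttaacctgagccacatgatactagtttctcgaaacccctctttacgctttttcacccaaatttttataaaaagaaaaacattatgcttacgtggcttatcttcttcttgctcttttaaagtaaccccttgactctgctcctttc
The G-box stood at -111 to -106 in RVE1 and at -163 to -158 in RVE2, and the CCA1-binding site at -244 to -237 in RVE2. In 27443 such 500-base windows of protein-coding genes, 9.35% held a G-box and 12.5% a CCA1-binding site on either strand, and no motif searched overlapped another in the members. These matches are letters in a window and say nothing of binding.

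In phyA-211, RVE1 had 29.0, 33.3 and 35.9 TPM under submergence, against 4.59, 7.41 and 6.63 TPM in air. In ein3eil1, RVE1 had 40.8, 36.9 and 29.6 TPM under submergence, against 9.75, 8.06 and 10.3 TPM in air. In wild type, RVE1 had 18.2, 19.5 and 17.4 TPM under submergence, against 7.42, 7.44 and 9.25 TPM in air. Every submerged library exceeded every air library, and the submerged mutant libraries all exceeded the submerged wild-type ones. The log2 change was 2.24 ± 0.17 in phyA-211 (limma adjusted p = 2.47e-08), 1.82 ± 0.17 in ein3eil1 (2.23e-07) and 1.11 ± 0.17 in wild type (5.12e-05). AT5G17305, on the opposite strand, overlaps RVE1 over 225 of its 2768 bases and ranged from 0 to 46.8 TPM. The sources do not say that strand was kept, so their shared reads cannot be told apart.

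RVE2 moved further. In phyA-211, RVE2 had 71.5, 38.6 and 34.0 TPM under submergence, against 10.3, 7.70 and 7.58 TPM in air. In ein3eil1, RVE2 had 195.0, 131.0 and 158.9 TPM under submergence, against 8.99, 13.7 and 14.8 TPM in air. In wild type, RVE2 had 65.0, 72.8 and 67.1 TPM under submergence, against 7.96, 6.14 and 6.32 TPM in air. No submerged library overlapped the air libraries, and submerged ein3eil1 lay above all others. The log2 change was 2.30 ± 0.25 in phyA-211 (limma adjusted p = 1.22e-06), 3.60 ± 0.25 in ein3eil1 (8.47e-09) and 3.16 ± 0.25 in wild type (4.61e-08). Within submerged phyA-211 the value of replicate 1 lay 0.07 above the submerged wild-type mean on the log2 scale, whereas replicates 2 and 3 lay at -0.81 and -0.99. Group means of RVE2 spanned 23.7-fold over the 6 groups, as did those of LNK1.

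RVE4, RVE6 and RVE8, the activators of evening genes, did not move together. RVE4 (chr5:648648-651979) had 90.4, 94.2 and 95.8 TPM in submerged phyA-211, against 39.0, 52.6 and 53.1 TPM in air phyA-211. It had 83.4, 77.1 and 83.8 TPM in ein3eil1 under submergence, against 53.1, 54.7 and 56.7 TPM in air ein3eil1, and 84.8, 89.2 and 85.0 TPM in submerged wild type, against 49.8, 48.0 and 47.6 TPM in air wild type. RVE4 was thus higher in every submerged library, with the narrowest span of the 10 genes, 1.94-fold between its highest and lowest group means. Its log2 change was 0.95 ± 0.12 in phyA-211 (limma adjusted p = 4.23e-06), 0.56 ± 0.12 in ein3eil1 (0.000534) and 0.82 ± 0.12 in wild type (2.22e-05).

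RVE8 (chr3:2946239-2949017) went the other way. RVE8 had 18.5, 22.2 and 23.9 TPM in submerged phyA-211, against 26.2, 31.3 and 33.3 TPM in air phyA-211. It had 18.8, 18.6 and 20.2 TPM in ein3eil1 under submergence, against 28.9, 29.0 and 38.1 TPM in air ein3eil1, and 10.4, 11.8 and 12.0 TPM in submerged wild type, against 33.5, 29.1 and 30.9 TPM in air wild type. All submerged libraries lay below all air libraries, and submerged wild type lay below both submerged mutants. The log2 change was -0.47 ± 0.14 in phyA-211 (limma adjusted p = 0.00973), -0.70 ± 0.14 in ein3eil1 (0.000442) and -1.38 ± 0.14 in wild type (7.52e-07). The ein3eil1 call ended after centring each library on its median (-0.16), and the phyA-211 call ended in a fit to its own 6 libraries (limma adjusted p = 0.122, 1.12e-07 to 0.122 over its alternatives). The RVE4 to RVE8 ratio of TPM within a library was 4.01 to 4.88 in submerged against 1.49 to 1.68 in air phyA-211, 4.14 to 4.45 against 1.49 to 1.89 in ein3eil1, and 7.10 to 8.13 against 1.48 to 1.65 in wild type.

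RVE6 (chr5:21359001-21362273) was lower in level than RVE4 and RVE8 in every group. RVE6 had 5.41, 7.68 and 10.1 TPM in submerged phyA-211, against 10.98, 11.3 and 10.3 TPM in air phyA-211. It had 8.50, 10.1 and 9.72 TPM in ein3eil1 under submergence, against 13.1, 13.3 and 13.1 TPM in air ein3eil1, and 4.64, 4.67 and 4.48 TPM in submerged wild type, against 9.42, 8.04 and 9.43 TPM in air wild type. The submerged libraries of each line lay below its air libraries. The log2 change was -0.48 ± 0.16 in phyA-211 (limma adjusted p = 0.0221), -0.44 ± 0.16 in ein3eil1 (0.0257) and -0.83 ± 0.16 in wild type (0.000474). Over all genes tested the median change was -0.48 in ein3eil1 and -0.32 in wild type, and on a median-centred scale the ein3eil1 value turned to 0.09 while the wild-type fall kept its call. Without submerged phyA-211 replicate 1 the phyA-211 change was -0.27 and not called.

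LNK1 and LNK2 are coactivators of these RVE proteins. LNK1 (chr5:25672466-25676823) had 2.28, 3.75 and 5.23 TPM in submerged phyA-211, against 43.4, 57.4 and 52.2 TPM in air phyA-211. It had 5.85, 11.7 and 7.50 TPM in ein3eil1 under submergence, against 59.2, 57.4 and 57.9 TPM in air ein3eil1, and 2.76, 2.16 and 2.45 TPM in submerged wild type, against 51.4, 44.5 and 50.6 TPM in air wild type. LNK1 was among the lowest of the 10 genes under water and among the higher ones in air, with no overlap in any line. It fell by 3.49 ± 0.22 on the log2 scale in phyA-211 (limma adjusted p = 4.36e-09), by 2.71 ± 0.22 in ein3eil1 (6.65e-08) and by 3.85 ± 0.22 in wild type (2.38e-09). AT5G64160, which overlaps LNK1 on the opposite strand over 245 bases, ranged from 18.2 to 32.1 TPM, above LNK1 itself in the submerged libraries.

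LNK2 (chr3:20175370-20179070) was the most abundant member in air, per length. LNK2 had 89.6, 102.6 and 114.3 TPM in submerged phyA-211, against 217.4, 243.0 and 238.6 TPM in air phyA-211, and 76.3, 82.7 and 79.7 TPM in submerged wild type, against 245.1, 223.3 and 215.5 TPM in air wild type. In ein3eil1, LNK2 had 173.2, 153.4 and 183.8 TPM under submergence, against 162.6, 165.7 and 201.3 TPM in air. The submerged and air libraries overlapped in ein3eil1 and stood well apart in phyA-211 and wild type. LNK2 fell by 1.19 ± 0.13 on the log2 scale in phyA-211 (limma adjusted p = 9.7e-07) and by 1.51 ± 0.13 in wild type (8.78e-08), and its change in ein3eil1 was -0.05 ± 0.13 (0.741). After each library was centred on its median, that value became 0.48 and was called (limma adjusted p = 0.00753, range 0.00753 to 0.900 over its 13 alternatives). AT3G08405 and RPB5E overlap LNK2 on the opposite strand over 266 and 93 bases and reached at most 9.09 and 0.46 TPM. LNK1 stood at 0.0338 to 0.0761 of the LNK2 level in submerged ein3eil1, against 0.288 to 0.364 in air ein3eil1.

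GI, FKF1 and ZTL form the light-dependent degradation arm of the clock. GI (chr1:8061751-8067790) had 1.20, 8.62 and 11.5 TPM in submerged phyA-211, against 4.25, 8.51 and 7.49 TPM in air phyA-211. It had 2.86, 5.06 and 3.76 TPM in ein3eil1 under submergence, against 30.0, 24.9 and 22.9 TPM in air ein3eil1, and 2.00, 1.71 and 1.77 TPM in submerged wild type, against 9.23, 7.07 and 7.28 TPM in air wild type. GI was lower under water without overlap in ein3eil1 and wild type, whereas the 3 submerged phyA-211 libraries lay on both sides of their air libraries. GI fell by 2.48 ± 0.45 on the log2 scale in ein3eil1 (limma adjusted p = 0.000195) and by 1.64 ± 0.45 in wild type (0.00576). In phyA-211 the change was -0.23 ± 0.45 (0.698). It was 0.55 without replicate 1 of submerged phyA-211 and -1.77 with that library alone (limma adjusted p = 0.000362, range 0.000362 to 0.938 over its 14 alternatives), so its direction in phyA-211 rests on 1 library.

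FKF1 (chr1:25508639-25510907) was the member of this arm that was higher under water. Its upstream sequence is shown because it was the only member with an evening element (AAAATATCT, or AGATATTTT on the other strand) in 500 bases, at -373 to -365 and, on the reverse strand, at -186 to -178. Such elements were in 4.44% of the 27443 windows. The 250 bases before its start, on the plus strand of TAIR10.1 at chr1:25508389-25508638, hold the nearer of these, in capitals.
FKF1: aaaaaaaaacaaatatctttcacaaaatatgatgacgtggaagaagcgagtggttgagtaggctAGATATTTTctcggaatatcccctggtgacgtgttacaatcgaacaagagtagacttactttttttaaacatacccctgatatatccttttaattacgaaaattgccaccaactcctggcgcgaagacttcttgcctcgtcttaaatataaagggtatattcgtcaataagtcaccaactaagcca
RVE6 held 1 CCA1-binding site, at -58 to -51, and no member held the hypoxia-responsive promoter element, which was in 0.0765% of windows. The absence of these letters from the other windows says nothing of the factors.

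FKF1 had 5.10, 10.8 and 12.4 TPM in submerged phyA-211, against 3.79, 1.21 and 2.59 TPM in air phyA-211. It had 20.4, 18.8 and 16.7 TPM in ein3eil1 under submergence, against 17.1, 14.9 and 10.7 TPM in air ein3eil1, and 7.58, 6.49 and 7.29 TPM in submerged wild type, against 2.48, 3.24 and 2.72 TPM in air wild type. In ein3eil1 the ranges overlapped, at levels above those of wild type in both conditions. FKF1 rose by 1.56 ± 0.29 on the log2 scale in phyA-211 (limma adjusted p = 0.00031) and by 1.09 ± 0.29 in wild type (0.00457). In ein3eil1 the change was 0.39 ± 0.29 (0.255), and 0.92 on the median-centred scale (limma adjusted p = 0.0058, range 0.0058 to 0.595 over its 13 alternatives). MAP70-1 overlaps FKF1 on the opposite strand over 21 bases.

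ZTL (chr5:23241320-23244590), the F-box protein that removes TOC1 and PRR5, had 10.2, 22.6 and 27.7 TPM in submerged phyA-211, against 13.4, 19.1 and 16.8 TPM in air phyA-211. It had 18.6, 17.1 and 13.4 TPM in ein3eil1 under submergence, against 28.7, 27.4 and 25.7 TPM in air ein3eil1, and 9.73, 9.29 and 10.4 TPM in submerged wild type, against 20.4, 16.1 and 19.1 TPM in air wild type. ZTL was lower under water in every ein3eil1 and wild-type library, and its phyA-211 libraries overlapped. It fell by 0.71 ± 0.26 on the log2 scale in ein3eil1 (limma adjusted p = 0.0241) and by 0.85 ± 0.26 in wild type (0.0107). After median centring neither fall was called, at -0.18 and -0.38 (limma adjusted p = 0.410 in ein3eil1, range 4.68e-05 to 0.410 over its alternatives, and 0.0760 in wild type, range 7.54e-07 to 0.0760). In phyA-211 the change was 0.18 ± 0.26 (0.572), and it was called in opposite directions without replicate 1 of the submerged group (0.59, limma adjusted p = 0.00552) and with replicate 1 alone (-0.63, limma adjusted p = 0.0207), with a range of 2.15e-05 to 0.903 over its 14 alternatives. Leaving out replicate 3 of the submerged group gave -0.09, not called. The direction of ZTL in phyA-211 thus depends on which submerged libraries are kept.

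**Figure D1:**
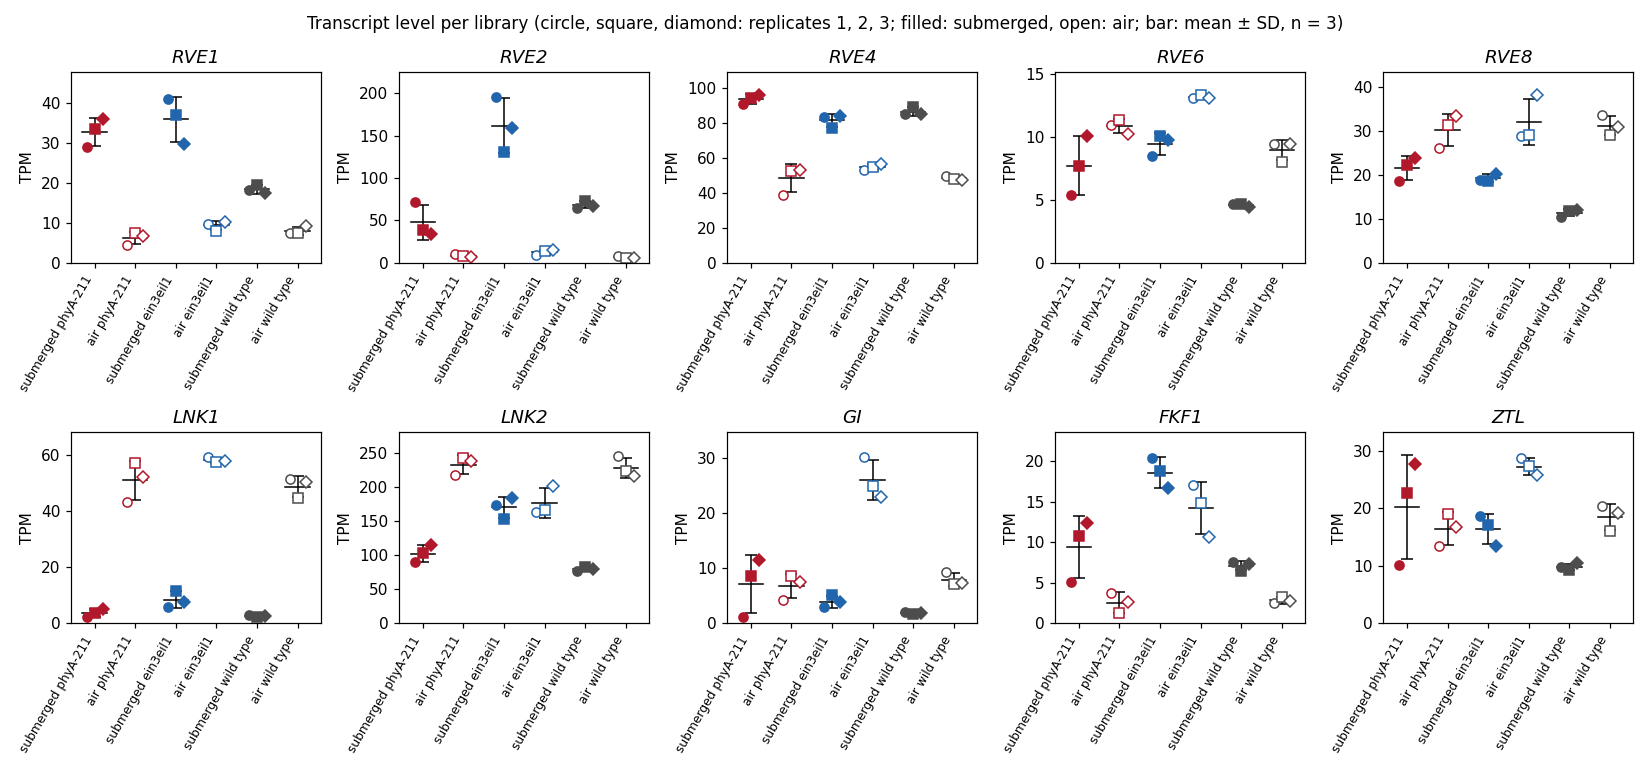
Transcript level in TPM of the 10 genes in each of the 18 libraries, 1 panel a gene, with submerged (filled) left of air (open) within each line and bars for the mean ± SD (n = 3). The LNK1 air libraries sit between 43.4 and 59.2 TPM, above all submerged ones, and the GI and ZTL values of submerged phyA-211 spread widely, with replicate 1 (circle) lowest.

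In counts, 8 of the 10 genes were called under submergence in phyA-211, 4 higher and 4 lower, where 51.2% of all genes tested were called, 27.3% higher and 23.9% lower. In ein3eil1, 3 were higher and 5 lower, where 64.2% of all genes were called, 17% higher and 47.3% lower. After median centring the split was 5 higher and 2 lower for the members and 6186 higher and 5317 lower for all genes. In wild type all 10 were called, 4 higher and 6 lower, where 56.9% of all genes were called, 18.9% higher and 38% lower. Centring gave 4 higher and 5 lower members there, beside 6539 higher and 4520 lower of all genes. The submerged and air libraries did not overlap in 8, 8 and 10 members in phyA-211, ein3eil1 and wild type, beside 46.9%, 72.8% and 73.9% of all genes. The median change of the 10 genes was -0.02 in phyA-211, -0.25 in ein3eil1 and -0.84 in wild type, beside 0.07, -0.48 and -0.32 over all genes tested. With so many genes called, the share of members called is no result about them, and their sizes and directions carry the description. Without submerged phyA-211 replicate 1 the phyA-211 changes of RVE1, RVE2, RVE4 and FKF1 were 2.32, 1.98, 0.98 and 1.90, and those of RVE8, LNK1 and LNK2 were -0.37, -3.25 and -1.10, all still called. The phyA-211 split was then 5 higher and 3 lower. The share of all genes called in that fit is not given here, so this split is no result about the members. Of the 26 member changes called under submergence, 20 kept their call and direction under every alternative run, among them those of RVE1, RVE2, RVE4 and LNK1 in all 3 lines.

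**Figure D2:**
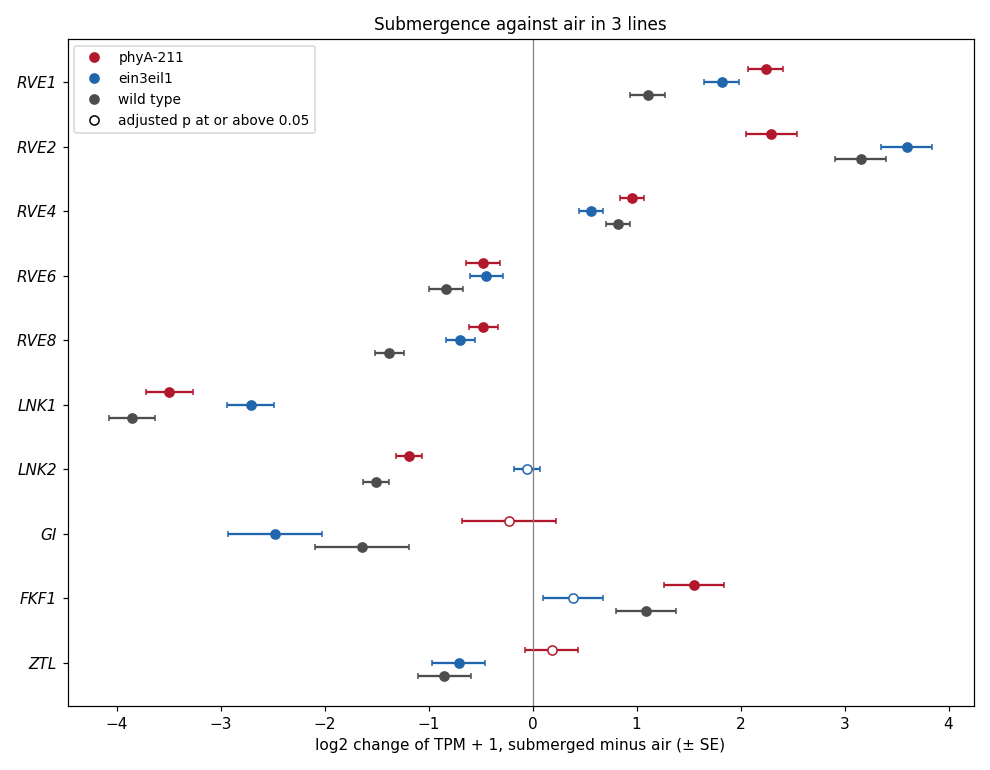
Log2 change of TPM + 1 under submergence against air for each gene (points, ± SE from limma) in phyA-211, ein3eil1 and wild type, with open points for adjusted p at or above 0.05. LNK1 lies between -2.71 and -3.85 in the 3 lines, and LNK2 and FKF1 in ein3eil1 and GI and ZTL in phyA-211 are the open points.

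In air, none of the 10 genes was called between phyA-211 and wild type by limma (adjusted p between 0.353 and 0.962), none had an unadjusted p under 0.05, and 4.01% of all genes were called, 1.63% higher and 2.38% lower. The median change was -0.03 over the 10 genes and -0.04 over all genes, and with array weights 1 of the 10 was called. A p above the threshold does not show equal levels. The groups did not overlap in 2 of the 10 genes, beside 22.7% of all genes: RVE1 had 4.59 to 7.41 TPM in air phyA-211, against 7.42 to 9.25 TPM in air wild type, and RVE6 had 10.3 to 11.3 TPM in air phyA-211, against 8.04 to 9.43 TPM in air wild type.

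In air, ein3eil1 had higher GI, FKF1, RVE2 and RVE6 and lower LNK2 than wild type, 5 of 10 genes called, where 28.3% of all genes were, 25.6% higher and 2.73% lower (823 and 1551 genes after centring). GI averaged 25.9 ± 3.7 TPM in ein3eil1 and 7.86 ± 1.2 TPM in wild type (SD, n = 3 each), a log2 change of 1.60 ± 0.45 (limma adjusted p = 0.0187). FKF1 averaged 14.2 ± 3.3 TPM in ein3eil1 and 2.81 ± 0.39 TPM in wild type, a change of 1.98 ± 0.29 (0.000547). FKF1 was the one of the 5 whose call held under all 13 alternatives. The change was 0.77 for RVE2 (0.0319) and 0.51 for RVE6 (0.0314), where the median of all genes was 0.37, and after centring they were 0.33 and 0.07 and not called. LNK2 differed by -0.37 (0.0382), and by -0.81 after centring. The median of the 10 genes was 0.38. The centred split was 2 higher and 2 lower, and leaving out 1 library at a time gave 1 to 4 calls. Epidermis markers summed to 63.0 to 161.5 TPM in air ein3eil1, against 13.7 to 59.4 TPM in air wild type, and phloem markers to 117.1 to 166.7 TPM in air ein3eil1, against 55.1 to 78.1 TPM in air wild type. Of these 4 markers PDF1 and SUC2 were called higher, and their part in the clock gene differences was not tested.

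Under water, 6 genes were higher in phyA-211 than in wild type and none was lower, where 39.1% of all genes were called, 32.7% higher and 6.44% lower (2365 and 4103 genes after centring). RVE8 differed by 0.86 ± 0.14 on the log2 scale (limma adjusted p = 0.000739), RVE1 by 0.80 ± 0.17 (0.00382) and RVE6 by 0.60 ± 0.16 (0.0115). LNK2 differed by 0.35 (0.0367), ZTL by 0.86 (0.0177) and GI by 1.18 (0.0478). The ranges of ZTL and GI overlapped. Those of RVE8, RVE1, RVE6 and LNK2 did not, nor did those of RVE4, which was not called (limma adjusted p = 0.4575). The share of all genes without overlap is not given here. The median was 0.51 over the 10 genes and 0.29 over all genes, and after centring 1 gene was higher and 1 lower. Replicate 1 of submerged phyA-211 lay at -0.36 from the submerged wild-type mean for GI on the log2 scale, and replicates 2 and 3 at 1.77 and 2.14, and for ZTL the 3 values were 0.05, 1.13 and 1.41. For RVE1, RVE6, RVE8 and LNK2 replicate 1 lay at 0.63, 0.20, 0.66 and 0.17. Without replicate 1, 8 genes were higher and 1 lower, and those called only in that fit are not named here. RVE1 was then at 0.88, RVE6 at 0.81, RVE8 at 0.96, LNK2 at 0.44, ZTL at 1.27 and GI at 1.96. The share of all genes called in that fit is not given here, so these counts are no result about the members.

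Under water, 8 genes were higher in ein3eil1 than in wild type and none was lower, where 44.5% of all genes were called, 28.5% higher and 16% lower (3835 and 6116 genes after centring). LNK1 averaged 8.34 ± 3.0 TPM in ein3eil1 and 2.46 ± 0.30 TPM in wild type (SD, n = 3 each), a log2 change of 1.39 ± 0.22 (limma adjusted p = 0.000134). LNK2 averaged 170.1 ± 15 TPM in ein3eil1 and 79.6 ± 3.2 TPM in wild type, a change of 1.08 ± 0.13 (4.71e-06). Every submerged ein3eil1 library lay above every submerged wild-type library for both coactivators. The groups did not overlap in any of the 10 genes, RVE4 and GI among them, and the share of all genes without overlap is not given here. FKF1 differed by 1.27 ± 0.29 (0.00226), RVE2 by 1.21 ± 0.25 (0.000945), RVE1 by 0.91 ± 0.17 (0.000441), RVE6 by 0.90 ± 0.16 (0.000373) and RVE8 by 0.71 ± 0.14 (0.000744). All 7 of these calls held under the 13 alternatives, while that of ZTL (0.67, limma adjusted p = 0.0437) did not. RVE4 and GI were not called, and after centring the split was 7 higher and 1 lower. The median change of the 10 genes was 0.91, beside 0.19 over all genes tested.

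**Figure D3:**
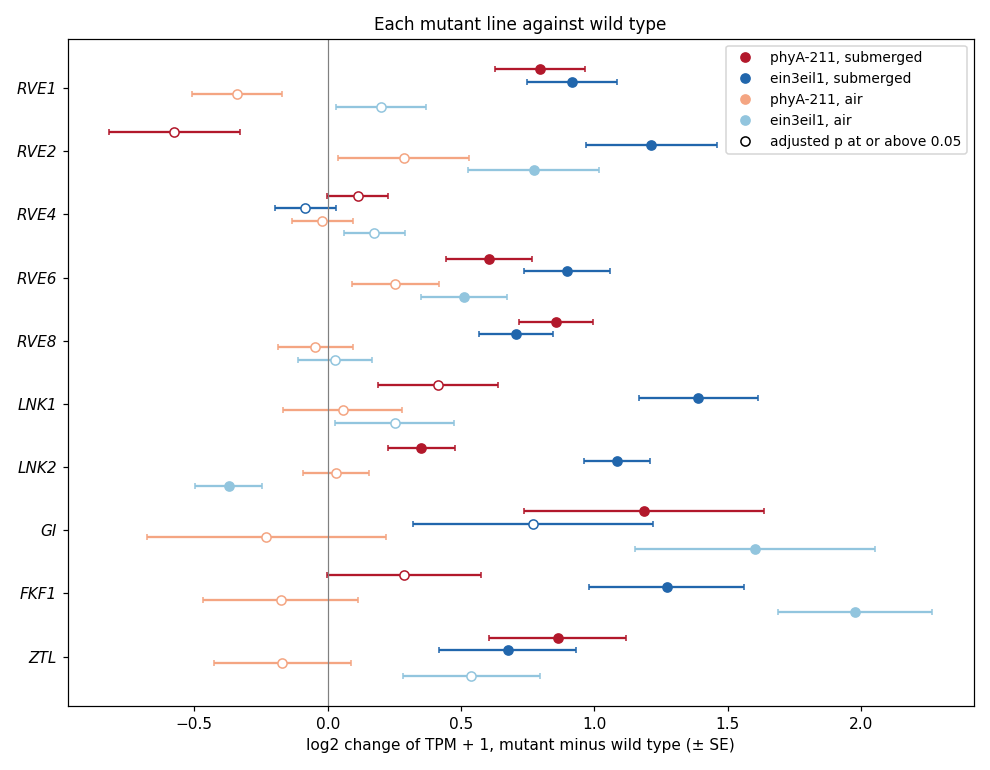
Log2 change of TPM + 1 of each mutant line against wild type, submerged and in air (points, ± SE from limma), with open points for adjusted p at or above 0.05. All phyA-211 points in air are open, and submerged ein3eil1 is open for RVE4 and GI.

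The size of the submergence response was then compared between each mutant and wild type as an interaction term, and both tests use the same wild-type libraries. The phyA-211 response exceeded the wild-type response for RVE1 by 1.14 ± 0.24 on the log2 scale (limma adjusted p = 0.0092), RVE8 by 0.90 ± 0.20 (0.0109) and ZTL by 1.03 ± 0.36 (0.0495), 3 of 10 genes, where 24.6% of all genes were called, 20.4% positive and 4.19% negative (1219 and 2369 genes after centring). For RVE1 this was a larger rise, for RVE8 a smaller fall, and for ZTL the change was above 0 in phyA-211 and below 0 in wild type. The median was 0.41 over the 10 genes and 0.35 over all genes, and after centring, or with submerged phyA-211 replicate 1 alone, none of the 3 was called. Without that replicate 5 genes were positive and 1 negative, with RVE1 at 1.22, RVE8 at 1.00 and ZTL at 1.44. Apart from GI, the genes called only in that fit are not named here. The share of all genes called in that fit is not given here, so these counts are no result about the members. The ZTL call was lost under 16 of its 20 alternatives. GI differed by 1.41 ± 0.64 (0.103), and by 2.19 without that replicate (limma adjusted p = 0.000111, range 1.11e-07 to 0.908 over its 20 alternatives).

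The ein3eil1 response exceeded the wild-type response for LNK2 by 1.46 ± 0.18 on the log2 scale (limma adjusted p = 3e-05), LNK1 by 1.14 ± 0.32 (0.0146), RVE1 by 0.71 ± 0.24 (0.0362) and RVE8 by 0.68 ± 0.20 (0.0179), 4 of 10 genes, where 27.4% of all genes were called, 10.8% positive and 16.6% negative (2659 and 2656 genes after centring). LNK1 and RVE8 fell less in ein3eil1, and RVE1 rose more. Of these 4 genes, LNK2 alone had no called change in ein3eil1 before centring. The calls of LNK1 and LNK2 held under all 19 alternatives, and after centring 5 genes were positive. The RVE8 call was lost without air ein3eil1 replicate 1 (limma adjusted p = 0.0507, range 0.000421 to 0.0507), and that of RVE1 under 10 of the 19. The median over the 10 genes was 0.41, beside -0.20 over all genes tested.

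Genes that work beside the 10 were read in the same comparisons, as counts. The share of all genes called without replicate 1 of submerged phyA-211 is not given, so counts without it are no result about the lists. Under submergence, 27.3% of all genes were called higher and 23.9% lower in phyA-211. The shares were 17% and 47.3% in ein3eil1, and 18.9% and 38% in wild type. Of 6 further family members (RVE3, RVE5, RVE7, LNK3, LNK4, LKP2), 2 were higher and 2 lower under submergence in phyA-211 (1 and 2 after centring, 3 and 2 without replicate 1), 1 and 2 in ein3eil1 (2 and 2), and 0 and 3 in wild type (2 and 3). The REVEILLE gene RVE3 changed by -2.26, -2.49 and -1.33 in phyA-211, ein3eil1 and wild type, and LNK3 by -2.14, -1.84 and -1.70. Their medians were 0.21, -0.27 and -0.58, beside 0.07, -0.48 and -0.32 over all genes.

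Of 12 core oscillator genes, 6 were higher and 4 lower in submerged phyA-211. In ein3eil1 4 were higher and 6 lower (6 and 1 after centring), and in wild type 7 and 5 (7 and 4). TOC1 and PRR5, evening genes that RVE8 activates, rose by 2.71, 1.79 and 2.12 and by 2.58, 1.16 and 1.82 in phyA-211, ein3eil1 and wild type. LUX and BOA, MYB-like evening genes, changed by 2.16, 1.02 and 2.33 and by 3.02, 2.72 and 2.67. The morning genes PRR9 and CCA1 changed by -3.98, -3.43 and -3.82 and by -1.21, -0.81 and -2.21. The medians were 0.88, -0.09 and 1.05, beside 0.07, -0.48 and -0.32 over all genes.

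Of 8 photoperiod genes downstream of GI and FKF1, 4 were higher and 4 lower in submerged phyA-211, 2 and 3 in ein3eil1 (4 and 2 after centring), and 2 and 4 in wild type. CDF1, a repressor of CO and FT that FKF1 and GI remove, changed by -4.46, -2.43 and -3.25, and the flowering activator CO by 1.62, 1.22 and 1.07. FT, the mobile flowering signal, changed by -2.28, -0.83 and -3.31. In submerged ein3eil1 6 of the 8 were higher than in submerged wild type (4 higher and 1 lower after centring), FT by 3.02 and TSF, its close relative, by 3.95. Of all genes tested, 28.5% were higher and 16% lower in that comparison (3835 and 6116 genes after centring). The medians under submergence were -0.59, -0.02 and -1.72, beside 0.07, -0.48 and -0.32 over all genes.

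Of 6 clock output genes, 4 were higher and 0 lower in submerged phyA-211 (4 and 1 after centring, 5 and 0 without replicate 1), 2 and 3 in ein3eil1 (3 and 1), and 4 and 2 in wild type (4 and 1). COR27, a cold- and light-regulated clock component, changed by 4.17, 3.15 and 5.10, and its relative COR28 by 4.63, 2.86 and 4.45. The medians were 2.08, 0.09 and 1.85, beside 0.07, -0.48 and -0.32 over all genes. In air, 4 of these 6 were higher in ein3eil1 than in wild type, COR27 by 2.40 and the RNA-binding protein gene GRP7 by 2.28, as were 7 of the 12 core oscillator genes, among them ELF4 by 2.18 and PRR5 by 1.79. After centring 4 output genes were higher and 1 lower, and 5 core genes were higher and 1 lower. Of all genes tested, 25.6% were higher and 2.73% lower in that comparison (823 and 1551 genes after centring). In air phyA-211 against air wild type, 1 family gene was higher and no output gene was called. Lower in that comparison were 1 core gene (none after centring) and 1 photoperiod gene. Of all genes tested, 4.01% were called there.

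Of 5 SCF subunits and chaperones that work with ZTL, 4 were higher and 0 lower in submerged phyA-211 (3 and 0 after centring). In ein3eil1 1 was higher and 1 lower (3 and 1 after centring), and in wild type 3 and 1. ASK1, an adaptor that links F-box proteins to the ligase, changed by 1.15 in phyA-211, and HSP90.2, a chaperone of the family that matures ZTL, by -1.33 in ein3eil1 and -2.28 in wild type. Their medians were 0.84, 0.09 and 0.58, beside 0.07, -0.48 and -0.32 over all genes.

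**Figure D4:**
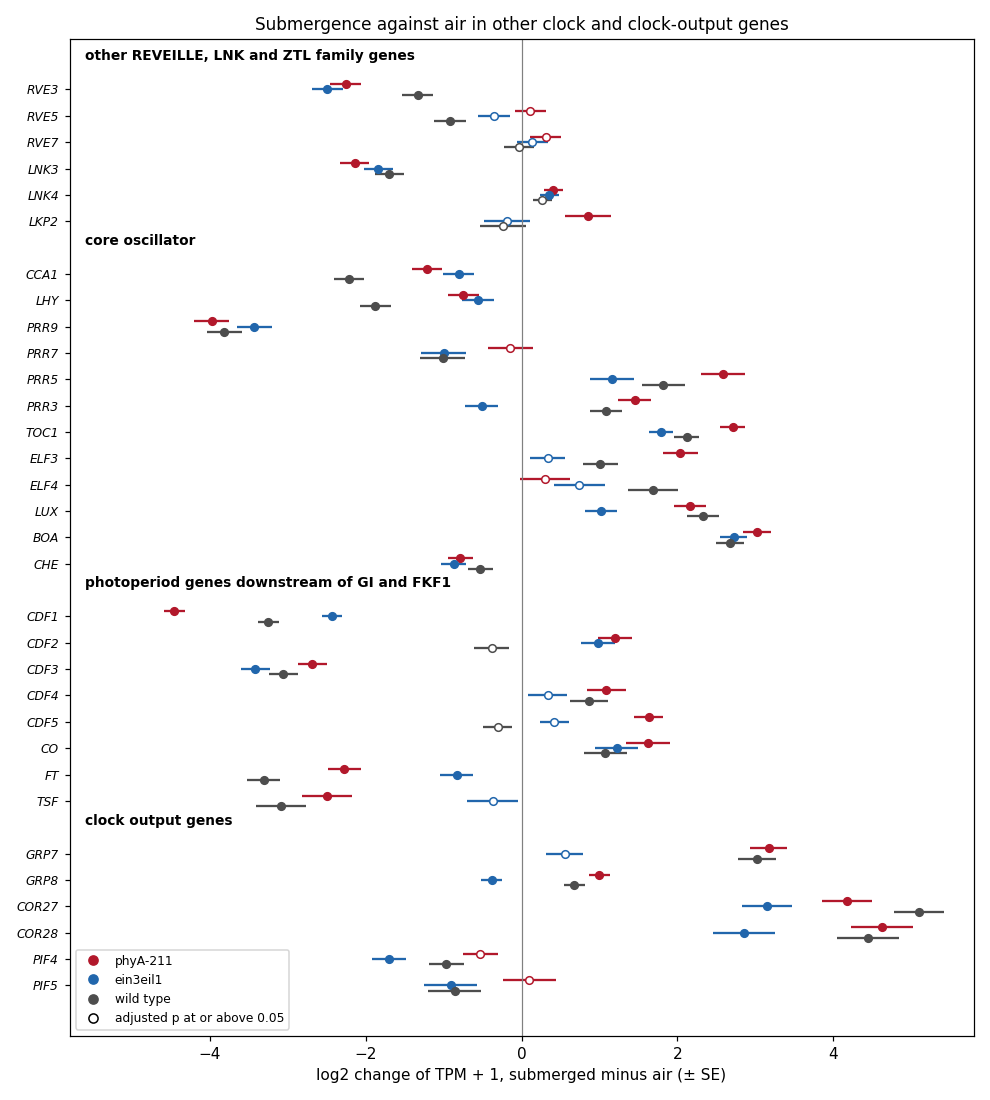
Log2 change of TPM + 1 under submergence against air (points, ± SE from limma) for 32 further clock, photoperiod and output genes in phyA-211, ein3eil1 and wild type, with open points for adjusted p at or above 0.05. COR27, COR28, TOC1 and BOA lie right of 0 in all 3 lines and PRR9, CDF1 and CDF3 left of it.

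Levels of leaf cell type markers moved with submergence, and their part in these results was not tested. The 3 mesophyll markers summed to 6002 to 6792 TPM in submerged against 12536 to 23368 TPM in air phyA-211, 5171 to 11277 TPM in submerged against 11701 to 13017 TPM in air ein3eil1, and 13874 to 15545 TPM in submerged against 19918 to 21462 TPM in air wild type. The 2 epidermis markers summed to 4.93 to 14.2 TPM in submerged against 14.8 to 63.0 TPM in air phyA-211, 10.1 to 30.0 TPM in submerged against 63.0 to 161.5 TPM in air ein3eil1, and 6.24 to 8.26 TPM in submerged against 13.7 to 59.4 TPM in air wild type. All of these sums were lower under water, without overlap within a line. The 2 guard cell markers summed to 17.1 to 24.1 TPM in submerged against 34.3 to 36.2 TPM in air phyA-211, 22.4 to 24.2 against 47.9 to 55.7 TPM in ein3eil1, and 22.8 to 24.5 against 35.9 to 43.4 TPM in wild type. The 2 phloem markers summed to 30.7 to 56.5 TPM in submerged against 55.5 to 85.7 TPM in air phyA-211, 50.7 to 61.7 TPM in submerged against 117.1 to 166.7 TPM in air ein3eil1, and 23.5 to 25.5 TPM in submerged against 55.1 to 78.1 TPM in air wild type. None of these markers was at 0 in all libraries of a group. The sums hide differences between markers. In wild type the 2 phloem markers changed by -2.31 and 0.17 on the log2 scale, and the 3 mesophyll markers by -2.41 to 0.08. Of the 2 epidermis markers, 1 was called lower in phyA-211, 1 in wild type and 2 in ein3eil1. Small nuclear RNA genes held 0.433% to 0.533% of TPM in submerged and 0.0277% to 0.0375% in air ein3eil1, and 0.510% to 0.592% in submerged and 0.0281% to 0.0553% in air wild type. In phyA-211 they held 0.329% to 1.85% in submerged and 0.731% to 2.04% in air libraries. The part of this difference in the results was not tested.

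As a description over the 18 libraries, which share the 6 groups, the gene with the pattern most like each member by Pearson correlation of log2(TPM + 1) was named. It was AlaAT1 for RVE1 (r = 0.984), AT1G22510 for RVE2 (0.971), PFK6 for RVE4 (0.979), KUP11 for RVE6 (0.975) and AT1G52870 for RVE8 (0.961). It was SDR1 for LNK1 (0.995), FUM2 for LNK2 (0.961), IDD5 for GI (0.986), CZF1 for FKF1 (0.940) and FAB1A for ZTL (0.988). These correlations follow the differences between groups, and no other member was the closest gene to any of the 10.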

How the data were processed

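Leaf mRNA from 18 libraries in 6 groups of 3 was analysed from 1 deposited table of 32833 genes. The authors' deposited values were taken as TPM, a unit inferred, since neither header nor label states it, from decimals and library sums of 996105 to 998620. The submitters' processing notes name fastp, cutadapt, HISAT2, DESeq2 and TAIR10, without versions or roles. TPM keeps no depth, and an exact test of 3 against 3 libraries cannot give p under 0.1. From these values log2(TPM + 1) was computed, a gene entered the test if 3 or more libraries reached 1 TPM (20302 did), and limma 3.58.1 in R 4.3.3 (trend and robust options) was fitted with group means over all 18 libraries, with no block, two-sided, with Benjamini-Hochberg adjustment over all genes tested. The 9 comparisons set submerged against air within a line (3), a mutant against wild type within a condition (4), and a mutant's response against that of wild type (2). The plan allowed for counts, and its TPM branch was used. The fit was also run on simulated data with known changes, drawn with the same SD in every group and no outlying library. That run cannot show how the fit handles groups of unlike spread or an outlying library.

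Members and gene lists were chosen with earlier results of these data known. All 10 members were named in each comparison of submergence with air, called ones otherwise, and list genes as examples of their counts. Gene names, overlaps and upstream sequences came from RefSeq TAIR10.1, whose nuclear chromosome lengths equal those of TAIR10. The deposited table has no coordinates, and 285 identifiers were not matched. Alternatives were a pseudocount of 0.1, no filter, median centring, quantile normalization, only the libraries of a comparison, array weights, a replicate block, each library left out, and replicate 1 as the sole library of submerged phyA-211.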

Additional observations from a re-analysis of the deposited data

Results flagged for a closer look

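The response to submergence differed between a mutant and wild type, by a test of the difference itself (the limma interaction term), in 7 cases. In phyA-211 minus wild type the log2 difference was 1.14 for RVE1, 0.90 for RVE8 and 1.03 for ZTL. In ein3eil1 minus wild type it was 0.71 for RVE1, 0.68 for RVE8, 1.14 for LNK1 and 1.46 for LNK2. After median centring none of the 3 phyA-211 cases was called. The ZTL call was lost under 16 of its 20 alternatives and the RVE1 call in ein3eil1 under 10 of 19, whereas those of LNK1 and LNK2 held under all 19. Dixon's test for a single outlying sample was not run on groups of 3 libraries.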

How the results depend on the processing

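Of 52 member changes called, 30 kept direction and call under every alternative run. The number of members called for the phyA-211 minus wild type difference of response was 3, and it was 0 after median centring, 1 after quantile normalization, 9 with array weights and 0 with submerged phyA-211 replicate 1 alone. For phyA-211 set against wild type under water it was 6, and 2 after centring, 2 after quantile normalization, 2 with only the libraries of the comparison, 10 with array weights and 0 with that replicate alone. For ein3eil1 against wild type in air it was 5, and 3 after quantile normalization, and for phyA-211 in air 0, and 1 with array weights. For the ein3eil1 minus wild type difference it was 4, and 8 with array weights. Leaving out 1 library at a time gave 2 to 6, 2 to 9, 1 to 4, 0 to 0 and 2 to 4 members for these comparisons in the order given. The share of all genes called with array weights or with a library left out is not given here, so these counts are no result about the members. The cause of these shifts was not tested.

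Direction turned in these cases. The GI change under submergence in phyA-211 was 0.19 with array weights and -0.71 to 0.55 over the libraries left out. That of LNK2 in ein3eil1 was 0.48 after centring, 0.025 with array weights and -0.11 to 0.047 with libraries left out. That of RVE6 in ein3eil1 was 0.091 after centring and 0.11 after quantile normalization, and that of ZTL in phyA-211 was -0.63 with replicate 1 of the submerged group alone and -0.090 to 0.59 with libraries left out. LNK2 in phyA-211 against wild type under submergence was -0.11 after centring. With replicate 1 alone, GI was -0.36 in phyA-211 against wild type under submergence and -0.13 in the phyA-211 minus wild type difference.

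With the replicate number as a block, the members called numbered 2 in place of 3 for the phyA-211 minus wild type difference, 3 in place of 4 for the ein3eil1 minus wild type difference and 7 in place of 8 for ein3eil1 set against wild type under water, and were the same number elsewhere. The calls of ZTL in the phyA-211 minus wild type difference (1.03, limma adjusted p = 0.0598), ZTL in submerged ein3eil1 against wild type (0.67, 0.0539) and RVE1 in the ein3eil1 minus wild type difference (0.71, 0.0506) were lost. Deviations of same-numbered libraries correlated at -0.38 to 0.44, and no comparison had all 3 above 0.1, so the numbers were not taken as pairs. In phyA-211, submerged and air, they were 0.44, 0.20 and 0.09, and the labels do not say what a number marks. Fits that leave 1 library in a group assume that it varies like the others. TPM values hold no depth, so no limit of detection can be set for the low values of GI and LNK1.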
